A study of Mus musculus with 6 samples.

Results

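The classical and lectin complement genes followed here were C1qa, C1qb, C1qc, C1ra, C1s1, C2, C4b, Serping1 and Masp1, 9 of the 19938 mouse genes with an array row of their own. They were taken as the table rows whose annotation names one of them, the brightest row for each gene, and all 9 had exactly 1 such row. A further row was annotated to both C1rb and C1ra and is described as that pair. RNA had been measured on 6 single-colour Affymetrix arrays, to compare stromal cells of the lymph node (LN) with cultured lines and fibroblasts. MEF were mouse embryonic fibroblasts grown in culture from C57BL/6JJcl embryos aged E11.5-13.5 (1 array, not sorted according to the labels). LN stroma was sorted straight from enzyme-digested LN of adult C57BL/6JJcl mice as cells without CD45 and CD31 and with podoplanin and VCAM-1 (1 array). BLS4 and BLS12 were established stromal lines from adult BALB/cA LN, each with 1 unstimulated array and 1 array after 2 days with 1 µg/ml of a goat polyclonal agonistic antibody to the lymphotoxin β receptor (LTβR), with no control antibody. MEF and LN stroma shared a strain but not age, tissue or culture, and the lines differed from both in strain, so these factors cannot be told apart.

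The classical pathway starts when C1q, a hexamer built from A, B and C chains, binds antibody or another surface and activates the serine proteases C1r and C1s that are attached to it. C1s then cleaves C4 and C2 to form the C3 convertase. In the lectin pathway mannose-binding lectins, ficolins and collectins take the place of C1q, and MASP proteases that of C1r and C1s. C1 inhibitor, the product of Serping1, is a serpin that inactivates C1r, C1s and the MASPs. C1q is made mainly by macrophages and dendritic cells, while fibroblasts are known to make C1r, C1s, C4 and C1 inhibitor.

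In the RefSeq annotation of GRCm38.p6 the members lie on 5 chromosomes. C1qa, C1qc and C1qb are neighbours on chromosome 4, between 136880126 and 136898844. C1ra (124512621 to 124523440) and C1s1 (124530344 to 124542392) are neighbours on chromosome 6, C4b (34728139 to 34743902) and C2 (34862602 to 34882100) lie on chromosome 17, Serping1 on chromosome 2 and Masp1 on chromosome 16. C1rb and C1s2, on chromosome 6, and C4a, on chromosome 17, are close copies of C1ra, C1s1 and C4b, so part of a row's signal may come from the copy.

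Promoter sequences are shown for the C1r and C1s proteases and the C1q B and C chains, the only members that had an entry. The genes of each pair had similar profiles over the arrays, and the pairs differed from each other. Sequences are from RefSeq (GRCm38.p6), 250 bases before to 50 after the transcript start, 5′ to 3′; 4 of the 9 members had an entry. Capitals mark matches, on either strand, to 5 short motifs: TTCNNNGAA (STAT), GAAA and GAAA with any 2 bases between them (IRF), GGG and CC with any 5 bases between them (NF-κB), TTGCNNAA (C/EBP) and GAGGAA (PU.1 and other ETS factors).
C1ra (chr6:124512371-124512670, plus strand): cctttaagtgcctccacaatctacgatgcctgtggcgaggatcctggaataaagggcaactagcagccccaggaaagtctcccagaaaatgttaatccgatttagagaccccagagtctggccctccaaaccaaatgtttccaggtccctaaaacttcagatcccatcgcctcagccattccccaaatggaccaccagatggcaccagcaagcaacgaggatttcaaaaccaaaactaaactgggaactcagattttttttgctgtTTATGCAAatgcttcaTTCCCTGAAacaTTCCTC
C1s1 (chr6:124542310-124542609, minus strand): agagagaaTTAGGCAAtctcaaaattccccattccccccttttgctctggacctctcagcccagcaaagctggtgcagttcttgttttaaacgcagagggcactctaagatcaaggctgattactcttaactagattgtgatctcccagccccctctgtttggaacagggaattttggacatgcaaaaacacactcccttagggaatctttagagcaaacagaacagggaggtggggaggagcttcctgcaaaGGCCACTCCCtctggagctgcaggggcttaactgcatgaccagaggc
C1qb (chr4:136886151-136886450, minus strand): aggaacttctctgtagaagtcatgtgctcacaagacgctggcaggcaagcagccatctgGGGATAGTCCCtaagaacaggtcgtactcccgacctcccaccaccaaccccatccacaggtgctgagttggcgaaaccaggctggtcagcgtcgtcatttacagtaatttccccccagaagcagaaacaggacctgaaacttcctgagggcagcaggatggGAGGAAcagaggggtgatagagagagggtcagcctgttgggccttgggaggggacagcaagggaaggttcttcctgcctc
C1qc (chr4:136892865-136893164, minus strand): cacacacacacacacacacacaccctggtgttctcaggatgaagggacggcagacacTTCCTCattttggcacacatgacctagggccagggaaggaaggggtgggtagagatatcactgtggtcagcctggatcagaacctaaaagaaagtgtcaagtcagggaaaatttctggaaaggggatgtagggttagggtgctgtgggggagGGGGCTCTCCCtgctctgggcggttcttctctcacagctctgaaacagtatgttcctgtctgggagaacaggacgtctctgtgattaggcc

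For C1s1 the upstream one of 2 listed starts is printed. The C1ra window held 1 STAT match (first base at 33 from the start), 1 C/EBP match (at 17) and 1 GAGGAA match (at 45). These C1ra matches all lay inside the transcribed part. The C1s1 window held 1 C/EBP match at -242 and 1 NF-κB match at 4, inside the transcribed part. The window of the other C1s1 start held the NF-κB match, at -35, and no C/EBP match. C1qb and C1qc each held 1 GAGGAA match and 2 overlapping NF-κB matches. None of the printed windows held the IRF letters. Of 32544 distinct promoter windows of the same length, 8.33% held the STAT letters, 3.45% the IRF letters, 51.0% the NF-κB letters, 10.8% the C/EBP letters and 28.1% GAGGAA. The NF-κB letters were thus present in about as many windows as not, and a match describes letters only.

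The deposited linear intensities were put on a log2 scale, and array medians lay between 5.69 and 5.82. There was no detection call, so a level below the array median gives only an approximate fold. Precision is limited by having 1 array for each group and condition. All 13 LN stromal markers listed (Pdpn, Vcam1, Ccl19, Cxcl13 and others) lay at or above the median in LN stroma, and 0 of 6 lymphocyte markers did. Of 8 endothelial markers, 6 lay at or above the median in LN stroma and 0 to 2 on each other array, and their summed linear intensity was 701 in LN stroma, 558 in MEF and 273 to 311 in the lines. Pecam1, which encodes the CD31 that the sort selected against, had a log2 intensity of 6.44 in LN stroma and 4.73 to 5.08 elsewhere, and Tek 8.18 against 5.18 to 6.61. Kdr and Emcn were highest in MEF. The part of endothelial cells in the LN stroma values was not tested. In the lines Ccl19, a T zone chemokine, stood at 6.04 to 6.39, above the median, against 12.49 in LN stroma, and Lum was below the median in both. Other markers of the list stayed high in the lines, among them Pdgfra, at 11.12 to 12.38 against 12.26 in LN stroma. Of 6 NF-κB genes listed as antibody controls, 4 were called higher with antibody by limma, where 0.2% of all genes tested were. That list was chosen with earlier results of these data known, so the count is no independent check of the antibody. Nfkb2 (1.96 log2 units, adjusted p = 0.0527) and Relb (1.09, adjusted p = 0.0918) did not pass. Nfkbie rose by 2.93 log2 units (SE 0.145, adjusted p = 0.00573), Birc3 by 2.24 (adjusted p = 0.0162), Tnfaip3 by 2.36 and Nfkbia by 2.00 (adjusted p = 0.0305 for both).

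The recognition subunit C1q was highest in MEF for each of its 3 chains. C1qa, the A chain, had a log2 intensity of 7.24 in MEF, 5.80 in LN stroma, 5.82 and 5.74 in BLS4 without and with antibody, and 5.62 and 5.59 in BLS12. C1qb, the B chain, had 7.69 in MEF, 5.20 in LN stroma, 4.56 and 4.95 in BLS4, and 4.60 and 4.85 in BLS12. C1qc, the C chain, had 7.59 in MEF, 5.24 in LN stroma, 4.93 and 4.68 in BLS4, and 4.92 and 4.71 in BLS12. MEF was the only array above its median for C1qb and C1qc; for C1qa unstimulated BLS4 lay just above its median too. The other 5 arrays lay close together, within 0.64 log2 units for C1qb, 0.55 for C1qc and 0.22 for C1qa.

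C1qb was lower in LN stroma than in MEF by 5.64-fold, C1qc by 5.10-fold and C1qa by 2.71-fold. No test exists for these differences, since each group had 1 array. Most listed macrophage markers were also highest in MEF. Of 21 with a row, 16 were highest there, and 15 were at or above the array median in MEF against 4 in each other array. Their summed linear intensity was 3700 in MEF, 1209 in LN stroma and 1013 to 2266 in the lines. Single bright genes weigh heavily in these sums. Lyz2 had a log2 intensity of 10.36 in MEF, and on the antibody-treated BLS12 array Lyz2 had 9.63 and Cd14 9.73. Csf1r, the macrophage growth factor receptor, had a log2 intensity of 7.06 in MEF and 5.29 to 6.02 elsewhere. Adgre1, which encodes F4/80, had 6.20 in MEF and 3.83 to 4.01 elsewhere. Tyrobp, a signalling adaptor of myeloid cells, had 6.73 in MEF and 4.72 to 5.37 elsewhere. Cd68, a lysosomal protein of macrophages, had 8.57 in MEF, followed by 7.77 in antibody-treated BLS4. The 5 markers not highest in MEF included Cd14, a co-receptor for lipopolysaccharide, which was lowest there, at 5.75 against 7.85 in LN stroma and 9.73 in antibody-treated BLS12. Ptprc, which encodes CD45, was another, below the median in all 6 arrays, at 5.26 in MEF and 5.70 in LN stroma. Aif1 (highest in LN stroma), Siglec1 and Vsig4 (highest in unstimulated BLS4) were also below the median in all 6 arrays. The same held for Fcgr1 and Ms4a7, which count among the 16 highest in MEF. The part of macrophages in the C1q levels was not tested, and in bulk RNA fewer cells of a type and less RNA per cell cannot be told apart.

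**Figure D1:**
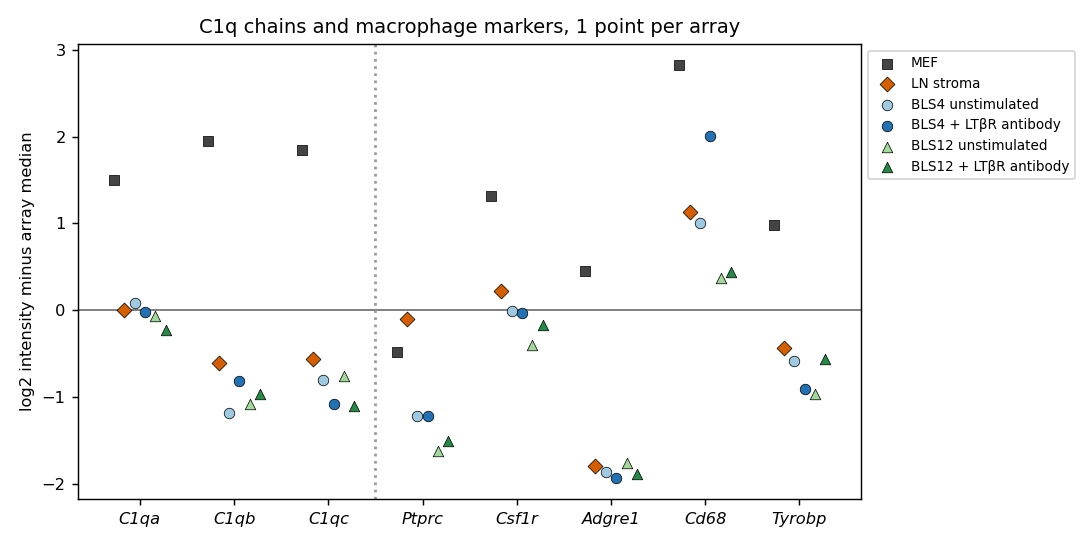
Log2 intensity minus the array's own median (vertical axis, log2 units) for the C1q chains and 5 defining macrophage markers, 1 point per array. MEF points are highest for every gene shown except Ptprc, which lies below the median line on all 6 arrays.

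For the C1 proteases MEF was the lowest array in place of the highest, and LN stroma was the highest. C1s1, the protease that cleaves C4 and C2, had a log2 intensity of 6.45 in MEF, 12.42 in LN stroma, 11.07 and 11.90 in BLS4 without and with antibody, and 10.62 and 11.52 in BLS12. C1ra, the protease that activates C1s, had 4.62 in MEF, 10.09 in LN stroma, 8.09 and 8.70 in BLS4, and 8.22 and 8.43 in BLS12. For both, every line array lay between MEF and LN stroma. On the row shared by C1rb and C1ra the line arrays also lay between, with 6.68 in MEF, 12.58 in LN stroma and 10.94 to 11.56 in the lines.

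C1s1 was 62.9-fold and C1ra 44.3-fold higher in LN stroma than in MEF; C1ra was below the median in MEF, so its fold is approximate. The unstimulated lines were also far above MEF, C1s1 by 4.62 log2 units in BLS4 and 4.18 in BLS12, and C1ra by 3.47 and 3.60. LN stroma exceeded the unstimulated lines by less, C1s1 by 1.35 and 1.80 and C1ra by 2.00 and 1.87, all short of 4-fold. After quantile normalization C1ra reached 4-fold against both lines. C1s2, the close copy of C1s1, had 5.23 in MEF, 8.46 in LN stroma and 6.77 to 7.81 in the lines.

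C4b and C2, the substrates of C1s, were highest in LN stroma with the lines much lower. C4b, which encodes complement component 4, had a log2 intensity of 5.16 in MEF, 12.37 in LN stroma, 7.78 and 8.18 in BLS4, and 6.30 and 7.32 in BLS12. C2, the catalytic part of the classical C3 convertase, had 5.47 in MEF, 11.20 in LN stroma, 6.38 and 6.65 in BLS4, and 7.56 and 8.25 in BLS12. Both were below the median in MEF alone. C4b was 148-fold higher in LN stroma than in MEF, 24.1-fold higher than in unstimulated BLS4 and 67.0-fold higher than in unstimulated BLS12. C2 was 53.3-fold, 28.3-fold and 12.5-fold higher in the same comparisons. C4a, the copy of C4b and annotated as a transcribed pseudogene, had 10.07 in LN stroma and 5.25 to 6.69 elsewhere.

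Serping1, which encodes the C1 inhibitor, was the only regulator among the members. It had a log2 intensity of 7.59 in MEF, 13.40 in LN stroma, 9.48 and 8.93 in BLS4 without and with antibody, and 10.68 and 10.17 in BLS12. All line arrays again lay between MEF and LN stroma. LN stroma was 56.1-fold above MEF, 15.1-fold above unstimulated BLS4 and 6.58-fold above unstimulated BLS12.

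Masp1, which encodes the lectin pathway proteases MASP-1 and MASP-3, separated the arrays in another way. It had a log2 intensity of 9.47 in MEF, 9.34 and 9.24 in BLS4, 5.78 in LN stroma, and 5.93 and 4.94 in BLS12. MEF and BLS4 lay within 0.24 log2 units of each other, while LN stroma and BLS12 were near or below the array median. Masp1 was 12.9-fold lower in LN stroma than in MEF and 11.8-fold lower than in unstimulated BLS4.

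**Figure D2:**
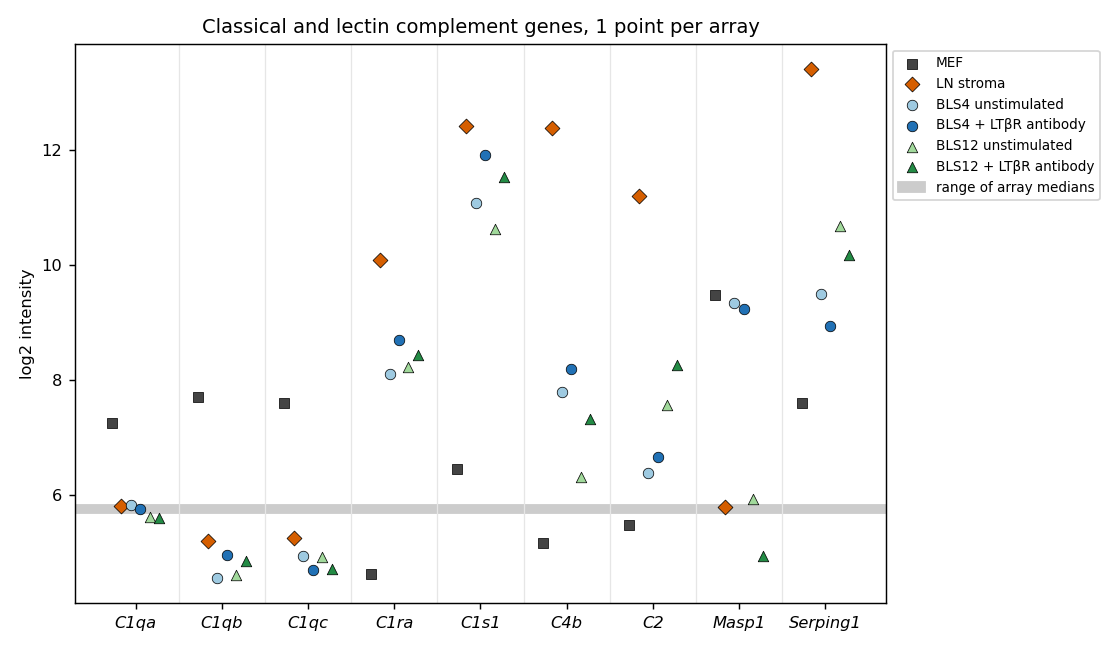
Log2 intensity (vertical axis) of the 9 members, 1 point per array, with the range of the 6 array medians as a grey band. LN stroma is the highest point for C1ra, C1s1, C4b, C2 and Serping1, MEF for the C1q chains and Masp1.

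Counted at 4-fold, 5 of the 9 members were higher in LN stroma than in MEF (C1s1, C1ra, C2, C4b and Serping1) and 3 were higher in MEF (C1qb, C1qc and Masp1). Over the 12613 genes at or above the median in either array, 4.64% were higher in LN stroma and 2.93% higher in MEF by that size, 7.57% in all. The members went both ways, 5 between 5.47 and 7.21 log2 units and 4 between -3.69 and -1.44, so their median, 5.47, is the smallest of the positive values and describes no shift of the set; the median over those genes was -0.11. In C4b 0.0793% of the genes had a larger difference in either direction, and in C1s1 0.238%. Against both unstimulated lines 3 of the 7 members kept were higher in LN stroma (C2, C4b and Serping1), where 3.52% of 12827 genes were, and 0 were higher in both lines (0.569%; either direction, 4.09%). Against both antibody-treated lines the same 3 were higher (3.44% of 12675 genes), of 6 kept, and 0 were lower (0.647%; either direction, 4.09%). Both unstimulated lines were 4-fold above MEF in C1s1 and C1ra (0.308% of 12676 genes) and below it in C1qb and C1qc (1.14%), 1.44% of genes in either direction. That count of 4 members became 7 without BLS4 and 5 without BLS12, as C4b passed in BLS4 alone and C2, Serping1 and Masp1 in BLS12 alone. These comparisons share the MEF or the LN stroma array. Of the 6 NF-κB genes listed as antibody controls, the 4 called with antibody were also at least 4-fold higher in LN stroma than in MEF and in both unstimulated lines. Nfkbia, for example, had a log2 intensity of 12.83 in LN stroma, 8.43 in MEF and 8.35 and 8.62 in the unstimulated lines. Their part in the LN stroma levels of the complement genes was not tested.

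**Figure D3:**
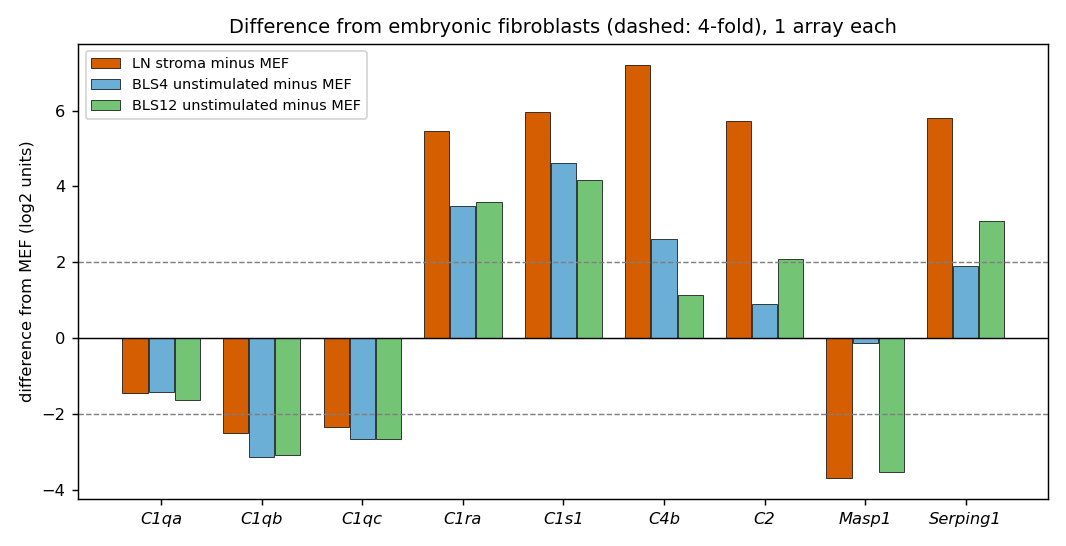
Difference from MEF in log2 units (vertical axis) for each member in LN stroma and in the unstimulated lines, 1 array each, with dashed lines at 4-fold. C1s1 and C1ra are above the upper line in all 3, C1qb and C1qc are below the lower line in all 3, and Masp1 is close to 0 in BLS4 alone.

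Just inside the size used against MEF stood C2 in BLS12, at 2.09 log2 units, and just outside it Serping1 in BLS4, at 1.90. C1ra in LN stroma against BLS4, at 1.996, missed 4-fold by the smallest margin.

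The antibody comparison, with each line as its own control, asked how the members responded to LTβR stimulation. In limma 0 of the 6 members tested passed over all genes, where 0.275% of 11988 did (24 higher, 0.2%, and 9 lower, 0.0751%; with arrays centred on their medians 54 and 44, after quantile normalization 5 and 1), and 5 of the 6 had an unadjusted p under 0.05, where 11.6% of the genes did. C1qa, C1qb and C1qc were below the intensity filter and were not tested. C1s1 had the smallest p among the members: its difference was 0.83 log2 units in BLS4 and 0.90 in BLS12, a mean of 0.87 (SE 0.138, 95% interval 0.52 to 1.21, adjusted p = 0.0941). Where only genes at or above the median on all 4 line arrays were tested, C1s1 passed (adjusted p = 0.0480). Its adjusted p ran up to 0.122 after quantile normalization and to 1.00 without the cell line as a block.

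The other antibody differences of the classical pathway members were smaller or less alike between the lines. C4b had 0.40 in BLS4 and 1.01 in BLS12 (mean 0.71, 95% interval 0.24 to 1.18, adjusted p = 0.250). C2 had 0.27 and 0.69 (mean 0.48, 95% interval 0.07 to 0.89, adjusted p = 0.364). C1ra had 0.60 and 0.21 (mean 0.41, 95% interval 0.01 to 0.81, adjusted p = 0.417), and the row shared with C1rb gave values of 11.16 and 11.56 in BLS4 and 10.94 and 11.45 in BLS12. For these 4 genes the values with antibody lay above those without it in both lines.

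Serping1 had differences of the other sign, -0.55 in BLS4 and -0.50 in BLS12 (mean -0.53, SE 0.137, 95% interval -0.87 to -0.19, adjusted p = 0.239). The inhibitor and the protease it inactivates thus had antibody differences of opposite sign in both lines. Within each pair of arrays, the C1s1 difference exceeded the Serping1 difference by 1.38 log2 units in BLS4 and 1.41 in BLS12, a contrast that does not depend on how the arrays are scaled by a constant. Masp1 had -0.10 in BLS4 and -0.996 in BLS12 (mean -0.55, 95% interval -1.13 to 0.03, adjusted p = 0.456), and with antibody it was below the median in BLS12.

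All 6 members tested had the same sign in both lines, where 59.9% of genes did: 4 were positive (28.4% of genes) and 2 negative (31.5%). The signs were the same with arrays centred on their medians and after quantile normalization. None of the members reached 2-fold in both lines, a size met by 0.667% of genes. The median of the 6, which have both signs, was 0.44, against -0.02 over all genes tested. The median of all rows lay 0.13 log2 units higher on the antibody-treated BLS12 array than on the unstimulated one, so relative to it the BLS12 differences are lower, C1ra's by most in proportion, from 0.21 to 0.08. The untested C1q chains had antibody differences of 0.39 and 0.25 (C1qb), -0.25 and -0.21 (C1qc) and -0.07 and -0.03 (C1qa) in BLS4 and BLS12.

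The lines differed from each other in 4 of the 6 members tested, 2 higher in BLS12 (12.2% of genes) and 2 higher in BLS4 (11.4%). Masp1 was higher in BLS4, with a BLS12 minus BLS4 difference of -3.85 log2 units (SE 0.234, adjusted p = 0.000836), -3.40 in unstimulated and -4.30 in antibody-treated cells. C4b was also higher in BLS4, with -1.17 (SE 0.189, adjusted p = 0.0121), -1.47 unstimulated and -0.86 with antibody. C2 was higher in BLS12, by 1.39 (SE 0.163, adjusted p = 0.00508), 1.18 unstimulated and 1.60 with antibody. Serping1 was higher in BLS12 too, by 1.22 (SE 0.137, adjusted p = 0.00452), 1.20 and 1.24.

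The substrates of C1s, C4b and C2, thus differed between the lines in opposite directions, in both conditions. C1s1 had -0.41 (95% interval -0.76 to -0.07, adjusted p = 0.0838) and passed after quantile normalization alone (adjusted p = 0.0455). C1ra had -0.07 (95% interval -0.47 to 0.33, adjusted p = 0.788). Without the antibody term C4b (adjusted p = 0.107) and Serping1 (adjusted p = 0.0538) no longer passed.

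**Figure D4:**
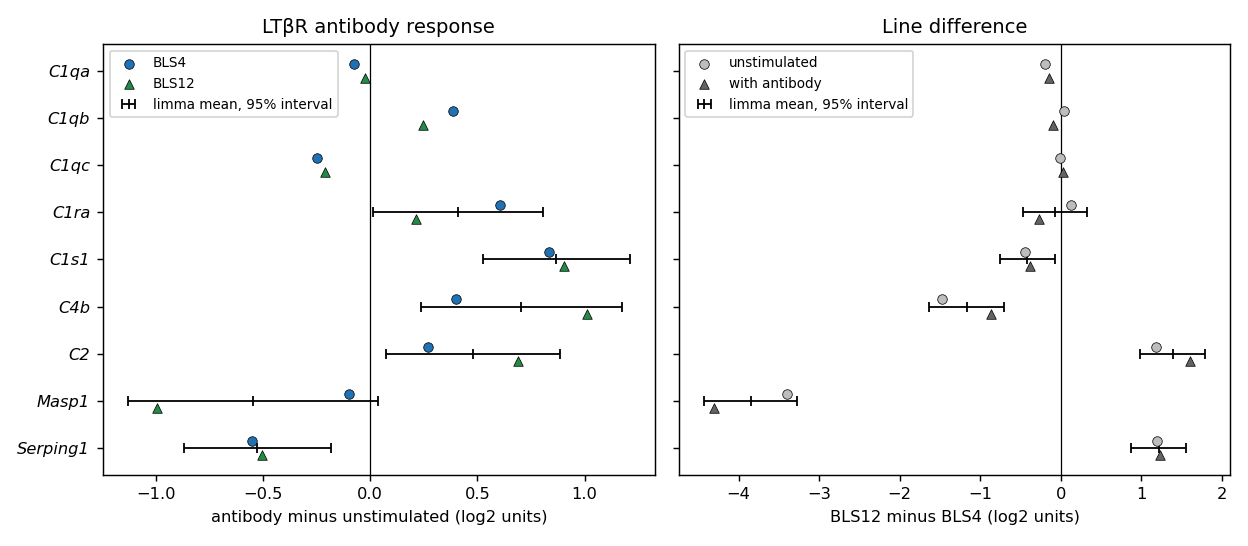
Left, antibody minus unstimulated difference in log2 units for each line; right, BLS12 minus BLS4 difference in each condition; points are single pairs of arrays and black ticks with whiskers the limma mean with its 95% interval for the 6 members tested (horizontal axes). C1s1, C4b, C2 and C1ra lie right of 0 with antibody in both lines and Serping1 and Masp1 left of it; in the line panel C2 and Serping1 lie right of 0 and C4b and Masp1 left of it.

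Of the other classical and lectin genes, 12 of 15 had a row of their own; C3, C5 and C1rb were not analysed here. In 6 of the 12, among them the mannose-binding lectins Mbl1 and Mbl2, the ficolin Fcnb and the protease Masp2, all 6 arrays were below their medians. Of the 6 tested in the lines, 0 passed with antibody in limma (0.275% of all genes tested) and 3 had an unadjusted p under 0.05 (11.6%). C1s2 had antibody differences of 0.69 in BLS4 and 0.73 in BLS12 (adjusted p = 0.133), close in size to those of C1s1, and C4a had 0.30 and 0.52 (adjusted p = 0.381). Colec12, a membrane collectin, had -0.58 and -0.24 (adjusted p = 0.402) and was higher in BLS4 than in BLS12 (-1.48, adjusted p = 0.00365), as was C4a (-0.85, adjusted p = 0.0142). Colec11, a soluble collectin that can bind MASPs, had 7.68 in LN stroma and 6.27 to 6.57 elsewhere. Fcna stayed between 6.53 and 6.91 on all arrays. C1rl, a C1r-like protease encoded beside C1ra, had 5.96 in MEF, 6.57 in LN stroma and 7.55 to 7.72 in the lines, so the lines and not LN stroma were highest.

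Another 9 genes were listed as C1q receptors or binders or complement receptors. Of the 6 tested, 0 passed with antibody in limma (0.275% of all genes tested) and 2 had an unadjusted p under 0.05 (11.6%). Cr2, complement receptor 2, was above the median in LN stroma alone, at 8.06 against 3.87 to 4.14 elsewhere. Listed as known inducers of complement genes were 13 transcription factors and cytokine receptors. With antibody 0 of them passed in limma (0.275% of all genes tested) and 5 had an unadjusted p under 0.05 (11.6%). At 4-fold, 5 of these 13 were higher in LN stroma than in MEF (Irf1, Irf8, Cebpb, Cebpd and Ifngr1), where 4.64% of genes were. In the same comparison 0 were lower (2.93%), and none separated both unstimulated lines from MEF (1.44%).

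The genes with the most similar profiles were found by the root mean square difference over the 6 arrays, after each gene was centred on its own mean. C1ra was the nearest of all genes to C1s1 (0.49 log2 units), followed by Pdgfra (0.60) and Xdh (0.66), and C1s1 was second for C1ra, between Ifi203 (0.44) and Slc43a3 (0.57). C2 was nearest to Socs3 (0.37), Ifi205 (0.40) and Vit (0.41), and Serping1 to Ifi205 (0.42), Abca9 (0.45) and C2 itself (0.47). C4b was nearest to Il6 (0.34), Iigp1 (0.63) and Cxcl1 (0.67). Il6 had a log2 intensity of 4.14 in MEF, 11.94 in LN stroma, 7.41 and 7.83 in BLS4, and 5.08 and 6.44 in BLS12, the same order of arrays as C4b. Masp1 was nearest to Cd109 (0.44), Tmeff1 (0.62) and Fhl2 (0.63). C1qc was nearest to C1qtnf3 (0.06), Nrk (0.11) and Tlcd4 (0.13), C1qb to Uchl1 (0.14), A2m (0.15) and Cdh19 (0.15), and C1qa to Slc38a3, Sprr3 and Mab21l2 (0.07 each). The 6 arrays hold repeated arrays of each line, and many genes high in MEF alone have such a profile.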

How the data were processed

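RNA from 6 samples was measured on single-colour Affymetrix arrays. Per the submitters' processing notes the authors used Affymetrix Expression Console 1.1, and the table they deposited gives linear intensity by transcript cluster; the normalization algorithm and genome build are not given in the sources used here. Of 35557 rows, 21789 were annotated to 1 gene (21698 matched by Entrez ID), 1621 to several and 12147 to none. Intensities were put on a log2 scale, and the brightest row per gene was used. The members and lists were chosen with earlier results of these data known. Line arrays were fitted in limma 3.58.1 (R 4.3.3) with cell line and antibody as terms, over 11988 genes at or above the array median on at least 2 of 4 arrays, with Benjamini-Hochberg adjustment at 0.05. The cell line named in the labels paired the arrays with and without antibody. The fit had 1 residual degree of freedom (prior 4.59, prior SD 0.151). For each gene it is the disagreement of the lines in the antibody difference, and most of the error term came from other genes. Nothing in the labels says that arrays came from separate cultures, so p-values do not measure variation between cultures. For the line difference, the unstimulated and antibody-treated arrays of a line stood in for its replicates. The model was run on simulated data with independent arrays drawn from its own prior and no line difference. Such a run cannot test how the model fits the real arrays, or the case of shared cultures. MEF and LN stroma, with 1 array each, entered no test: genes at or above the median on at least 1 array compared were counted at 4-fold. The text names all members, relatives at or above the median on 1 array or more and list genes called with antibody. It also names 5 macrophage markers and the 3 nearest profiles per member. Others (LN stromal markers, Cr2, Nfkb2, Relb, inducers, endothelial and further macrophage markers, relatives below the median) were named after their values were seen.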

Additional observations from a re-analysis of the deposited data

Results flagged for a closer look

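In 3 members the BLS12 minus BLS4 difference had opposite signs in unstimulated and in antibody-treated cells. It was 0.124 and -0.265 log2 units in C1ra, 0.044 and -0.096 in C1qb, and -0.007 and 0.029 in C1qc, each from 1 array per line and condition. The change of sign was not tested, since the design leaves no residual for it. C1qb and C1qc were below the array median on all 4 line arrays, and the C1qc signs turned with arrays centred on their medians (0.045 and -0.028) and after quantile normalization (0.054 and -0.047). No member had antibody differences of opposite sign in the lines.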

How the results depend on the processing

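Each tested member's antibody difference had the same direction under every alternative run, and so had the line difference except in C1ra, which had 0.124 on the unstimulated arrays alone and -0.07 over all 4 line arrays. With antibody 0 members passed under each alternative but 1: testing only genes at or above the median on all 4 line arrays gave 1 (C1s1). Over all genes, 33 passed, against 98 with centred arrays, 6 after quantile normalization, 54 without the filter and 115 with the stricter one. Without the cell line, the replicate block, 0 passed and 0 members did. Each line alone gave antibody differences of 0.215 to 0.903 for the 4 positive members and -0.996 to -0.099 for the 2 negative ones. Between the lines 4 members passed, 5 after quantile normalization and 3 with the stricter filter, under which Masp1 was not tested. Without the antibody term 2 members passed (C2 and Masp1) and 1428 genes in place of 2835. At 2-fold in place of 4-fold, 2815 genes separated LN stroma from MEF (955 at 4-fold). For the unstimulated lines against MEF 7 members and 738 genes did (4 and 183 at 4-fold), and for LN stroma against these lines 5 members and 1447 genes (3 and 524). Leaving out 1 line gave 5 to 7 members and 385 to 463 genes in the lines against MEF, and 3 to 4 members and 762 to 981 genes in LN stroma against the lines. The causes were not tested. With 1 array per group and condition, signal near the median limits C1q in the lines and Masp1 in BLS12.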
